A study of Mus musculus with 9 samples.

Results

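The enzymes that make serine from a glycolytic intermediate and pass its carbon into folate metabolism were followed across 3 zones of the embryonic mouse hypothalamus. The group holds 9 genes, Phgdh, Psat1, Psph, Shmt1, Shmt2, Mthfd1, Mthfd1l, Mthfd2 and Tyms, of the 38195 gene symbols in the deposited expression table, and was picked by gene name. Phgdh had also been singled out for its high level in the ventricular zone, so its differences between zones are given as a description and carry no test. All the mice were of the outbred CD-1 strain at the embryonic stage E12.5, with no mutation or treatment named in the labels. The ventricular zone (VZ), the medial mantle zone (mMZ) and the lateral mantle zone (lMZ) were cut by hand from vibratome slices, and mRNA of each was sequenced in 3 libraries. Whether a zone's libraries come from different embryos or litters is not stated in the labels, so the p-values measure the spread between libraries, which may be partly technical.

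Serine is built from 3-phosphoglycerate, an intermediate of glycolysis. Phgdh oxidises it, Psat1 adds an amino group and Psph removes the phosphate. Shmt1 in the cytosol and Shmt2 in mitochondria then split serine into glycine and a carbon unit carried on tetrahydrofolate. Mthfd1 (cytosol) and Mthfd2 and Mthfd1l (mitochondria) run further reactions of this unit. The carbon serves purine synthesis, methionine regeneration and, through Tyms, the making of thymidylate for DNA. In the developing brain Phgdh is known as a gene of neuroepithelial and radial glial cells, and later of astrocytes, and mice without it have severe brain malformations.

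All 9 genes were above the limit for testing, which was at least 1 FPKM (fragments per kilobase of gene, scaled by library size) in at least 3 of the 9 libraries. Mean FPKM was highest in the VZ, next in the mMZ and lowest in the lMZ for 8 of the 9 genes, all but Mthfd2. Phgdh is among the 8 by choice, and 30.8% of the 14004 tested genes had that order. Tyms lost it without VZ replicate 3 and mMZ replicate 3, the shallow libraries described below. It then measured 14.4 and 17.0 FPKM in the VZ and 18.1 and 15.3 FPKM in the mMZ. In VZ against lMZ, 6 of the 8 genes other than Phgdh rose in the VZ at a limma adjusted p within 0.05 (Benjamini-Hochberg over all tested genes), and none fell. Of all tested genes, 10.7% rose and 8.93% fell in that comparison, and since it is the one in which Phgdh was chosen, nothing is read from the share. In mMZ against lMZ, 2 of these 8 genes (Psat1 and Shmt1) rose and none fell, against 3.58% of all tested genes that rose and 0.543% that fell. Phgdh is set aside there too, because its low lMZ values took part in the choice. In VZ against mMZ none of the 8 passed, nor did any of the tested genes (0.0%). At an unadjusted limma p under 0.05, 1 of the 8 (Shmt2) and 1661 of all tested genes (11.9%) differed between VZ and mMZ, and with array weights 4 of the 8 passed the adjusted threshold (Psat1, Shmt1, Shmt2 and Mthfd1), as did 2761 of the 14004 tested genes, 778 of them higher in the VZ. The comparisons share libraries, so their results are not independent of each other.

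**Figure D1:**
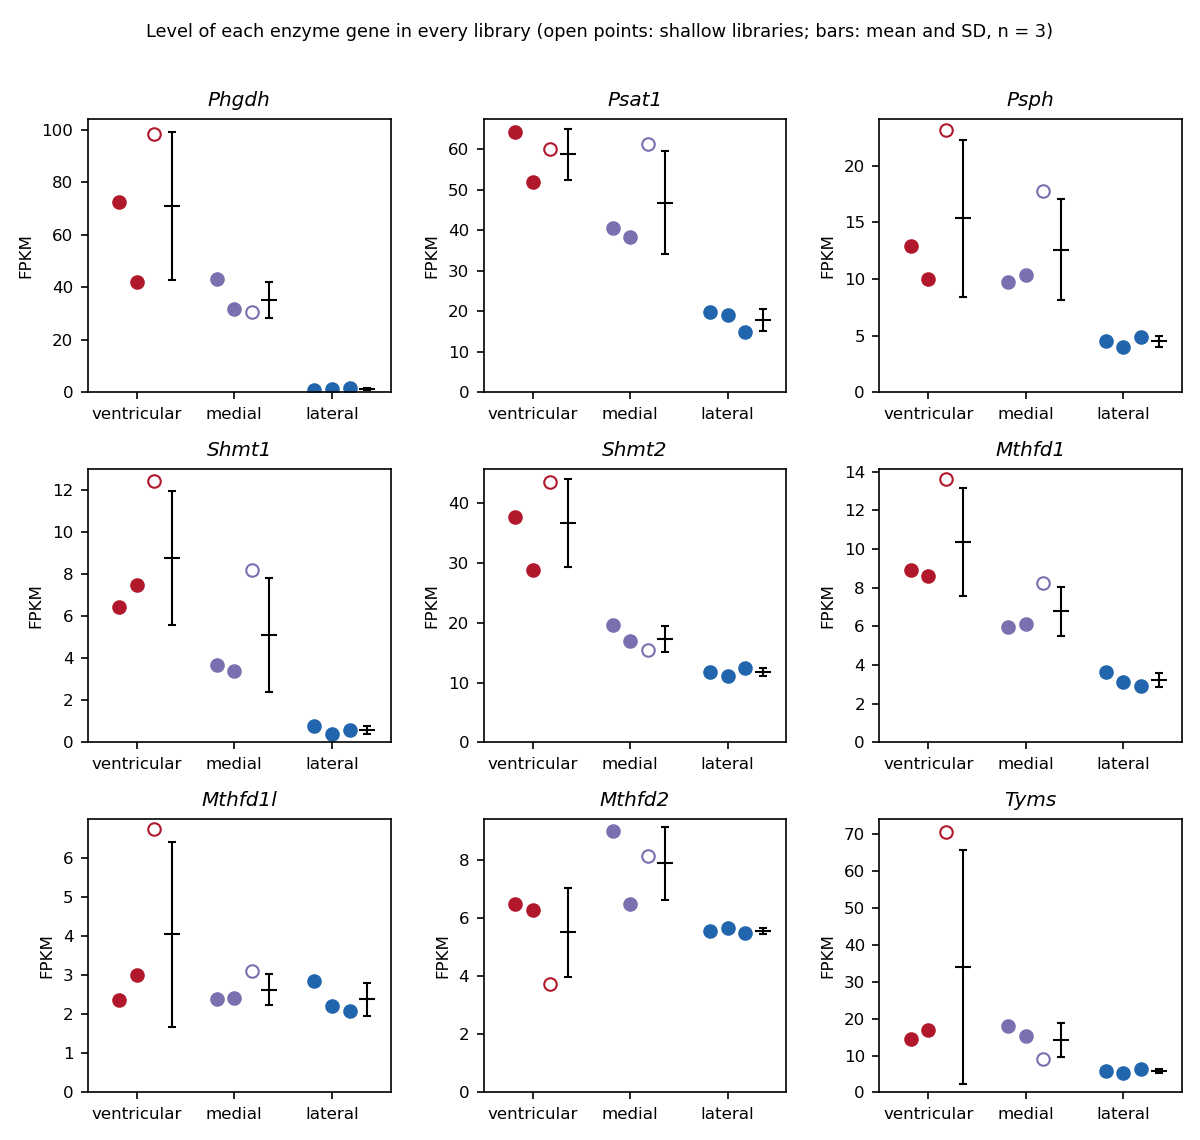
FPKM of each of the 9 enzymes in each library of the VZ, the mMZ and the lMZ (x axis), with the mean and SD over 3 libraries; open points are the shallow libraries, VZ replicate 3 and mMZ replicate 3. Phgdh reached 98.7 FPKM in a VZ library and stayed at or under 1.64 FPKM in the lMZ, whereas Mthfd2 lay between 3.74 and 8.98 FPKM in all 9 libraries.

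The libraries differed in depth and in makeup. Estimated from the steps between low values, 7 libraries held an implied 4422765 to 8807552 fragments, VZ replicate 3 held 258682 and mMZ replicate 3 held 517694. A single fragment on a 2 kb gene would thus count as 1.93 FPKM in the first and 0.966 FPKM in the second of these shallow libraries. Summed FPKM of 10 progenitor markers was 967 to 2077 in the VZ, 935 to 1123 in the mMZ and 87.5 to 123 in the lMZ. The sum of 10 proliferation markers was 258 to 797 in the VZ, 187 to 358 in the mMZ and 30.7 to 45.4 in the lMZ. Every VZ and mMZ library thus lay above every lMZ library on both lists. Summed FPKM of 10 neuron markers was 581 to 1345 in the VZ, 1293 to 1513 in the mMZ and 1807 to 2064 in the lMZ, and the 1345 belonged to VZ replicate 2. That library lay within the mMZ range on all 3 lists, so these markers did not set it apart from the mMZ.

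Markers of other cells moved with the zones as well. None of the defining progenitor, proliferation, neuron, red cell, endothelial or microglial markers was listed at 0 in every library of a zone. In VZ against lMZ, 9 of 10 progenitor and 10 of 10 proliferation markers rose and 7 of 10 neuron markers fell. Summed FPKM of red cell markers was 2406 to 2831 in the VZ, 1705 to 3173 in the mMZ and 416 to 774 in the lMZ, and 6 of the 8 tested red cell markers rose in both the VZ and the mMZ against the lMZ. Microglial markers summed to 5.31 to 20.7 FPKM in the VZ, 9.68 to 23.0 FPKM in the mMZ and 31.8 to 45.5 FPKM in the lMZ, with 2 of 7 lower in VZ than lMZ. Endothelial sums were 5.99 to 50.9 FPKM in the VZ, 20.5 to 63.9 FPKM in the mMZ and 15.6 to 48.2 FPKM in the lMZ, and meningeal and pericyte sums were 8.59 to 18.4 FPKM in the VZ, 9.16 to 22.0 FPKM in the mMZ and 5.25 to 15.7 FPKM in the lMZ. No gene of the endothelial list or of the meningeal and pericyte list passed, and the meningeal gene Lum was listed at 0 in all mMZ and lMZ libraries. The part of these markers and of depth in the enzyme differences below was not tested. In such dissected tissue, fewer cells of a type and less RNA per cell cannot be told apart.

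Phgdh, the first enzyme of serine synthesis, lies at chr3:98313170-98339990 on the minus strand (GENCODE M21 on GRCm38, as all gene spans here). It measured 72.6, 42.2 and 98.7 FPKM in the 3 VZ libraries, 43.1, 31.9 and 30.7 FPKM in the mMZ libraries and 0.800, 1.20 and 1.64 FPKM in the lMZ libraries. Every VZ and mMZ library lay far above every lMZ library, while VZ replicate 2 lay just under mMZ replicate 1, so that VZ and mMZ overlapped. Mean FPKM was 71.1 ± 28.3 in the VZ, 35.2 ± 6.86 in the mMZ and 1.21 ± 0.421 in the lMZ (SD, n = 3 each), 58.6 times as high in VZ as in lMZ and 2.02 times as high in VZ as in mMZ. On the log2(FPKM + 1) scale, on which all further differences are given and which understates those of low genes, VZ minus lMZ was 4.96 and VZ minus mMZ was 0.93, both given without a test. Ranked by VZ minus lMZ, Phgdh stood 6th of the 14004 tested genes, which is the value it was chosen on. The mMZ minus lMZ difference was 4.03 ± 0.31 (SE), given without a test as well, since it rests on the same low lMZ values. The lMZ values stand on an implied 10.4 to 15.8 fragments per library.

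Psat1, the aminotransferase of the middle step (chr19:15904678-15947337, minus strand), was at a level like that of Phgdh in the VZ but remained well expressed in the lMZ. It measured 64.2, 51.9 and 60.1 FPKM in the VZ libraries, 40.6, 38.3 and 61.3 FPKM in the mMZ libraries and 19.9, 18.9 and 14.8 FPKM in the lMZ libraries. The lMZ was below all other libraries, and the highest mMZ value, from the shallow mMZ replicate 3, lay within the VZ range. Means were 58.7 ± 6.26 FPKM in the VZ, 46.7 ± 12.7 FPKM in the mMZ and 17.9 ± 2.70 FPKM in the lMZ (SD, n = 3 each). Psat1 rose in VZ against lMZ by 1.67 ± 0.21 (SE; 95% interval 1.19 to 2.14; limma adjusted p = 0.00148) and in mMZ against lMZ by 1.32 ± 0.21 (0.84 to 1.79; limma adjusted p = 0.00929). Between VZ and mMZ the difference was 0.35 (-0.12 to 0.82; limma adjusted p = 0.502).

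Psph, the phosphatase that releases serine (chr5:129765558-129787449, minus strand), ran lower but in the same order. It measured 12.9, 10.01 and 23.2 FPKM in the VZ libraries, 9.76, 10.3 and 17.7 FPKM in the mMZ libraries and 4.53, 4.01 and 4.91 FPKM in the lMZ libraries. VZ and mMZ overlapped throughout, and both lay above the lMZ. VZ exceeded lMZ by 1.5 ± 0.33 (SE; 95% interval 0.75 to 2.25; limma adjusted p = 0.0158), a call lost without lMZ replicate 1 or lMZ replicate 2 (adjusted p up to 0.0635). The mMZ minus lMZ difference was 1.27 (0.52 to 2.02; limma adjusted p = 0.0673), and VZ minus mMZ was 0.23 (-0.52 to 0.98; limma adjusted p = 0.791). Psph exons overlap Cct6a on the opposite strand, which reached 143 FPKM, and the counting is not stated to use strand, so reads of the overlap cannot be told apart. The same holds for Shmt1 with Smcr8, Shmt2 with Ndufa4l2 and Mthfd1 with Gm47525 and Gm34868, and Phgdh and Tyms each have a pseudogene copy, Phgdh-ps1 and Tyms-ps.

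The 3 serine synthesis enzymes together reached 145 ± 39.1 FPKM in the VZ, 94.6 ± 14.7 FPKM in the mMZ and 23.6 ± 2.0 FPKM in the lMZ (SD, n = 3 each). Their proportions differed between the zones. Per library, log2 of Psat1 over Phgdh was -0.18, 0.30 and -0.72 in the VZ, -0.09, 0.27 and 1.0 in the mMZ and 4.64, 3.98 and 3.17 in the lMZ. Phgdh and Psat1 were thus near parity in VZ and mMZ, and in the lMZ the ratio of their mean FPKM was 14.7. Log2 of Psph over Phgdh was -2.49, -2.08 and -2.09 in the VZ, -2.14, -1.63 and -0.79 in the mMZ and 2.5, 1.74 and 1.58 in the lMZ. In both ratios every lMZ library lay above every VZ and mMZ library. These ratios were taken after the values had been seen and use the Phgdh level it was chosen on, so they are a description.

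**Figure D2:**
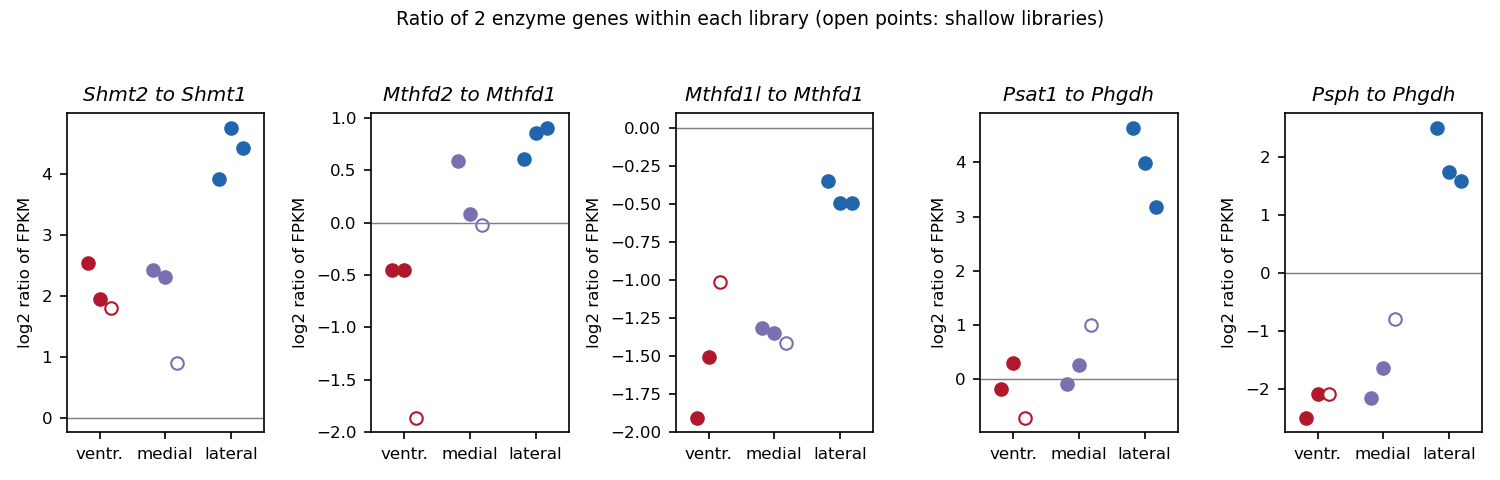
Log2 ratio of the FPKM of named enzyme pairs within each library (y axis) in VZ, mMZ and lMZ (x axis). Each point is 1 library. In all 5 ratios the 3 lMZ libraries lie above the VZ and mMZ libraries, and Psat1 over Phgdh runs from -0.72 to 0.30 in the VZ, against 3.17 to 4.64 in the lMZ.

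Shmt1, the cytosolic enzyme that splits serine (chr11:60788104-60811718, minus strand), had the next largest differences from the lMZ after Phgdh, in both the VZ and the mMZ. It measured 6.46, 7.48 and 12.4 FPKM in the VZ libraries, 3.68, 3.41 and 8.23 FPKM in the mMZ libraries and 0.774, 0.410 and 0.572 FPKM in the lMZ libraries. The lMZ libraries were all under 1 FPKM, on an implied 7.2 to 15.1 fragments each, and VZ and mMZ overlapped through the shallow mMZ replicate 3. Mean FPKM was 15.02 times as high in VZ as in lMZ. Shmt1 rose in VZ against lMZ by 2.59 ± 0.37 (SE; 95% interval 1.76 to 3.41; limma adjusted p = 0.00239) and in mMZ against lMZ by 1.87 ± 0.37 (1.04 to 2.69; limma adjusted p = 0.0225). The mMZ call was lost when any single mMZ or lMZ library was left out (adjusted p up to 0.107). VZ minus mMZ was 0.72 (-0.10 to 1.54; limma adjusted p = 0.456).

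Shmt2, its mitochondrial counterpart (chr10:127517123-127522444, minus strand), had its wider step between VZ and mMZ. It measured 37.8, 28.9 and 43.6 FPKM in the VZ libraries, 19.7, 16.9 and 15.4 FPKM in the mMZ libraries and 11.8, 11.1 and 12.4 FPKM in the lMZ libraries. No zone overlapped another. VZ exceeded lMZ by 1.55 ± 0.20 (SE; 95% interval 1.11 to 1.99; limma adjusted p = 0.00148). VZ minus mMZ was 1.03 ± 0.20 (0.59 to 1.47), with a limma p of 0.000443 before and 0.20 after adjustment, and it passed without VZ replicate 2, as did 99 of all tested genes that were higher in the VZ. The mMZ minus lMZ difference was 0.52 (0.08 to 0.96; limma adjusted p = 0.176).

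The balance of the SHMT genes therefore differed by zone. Log2 of Shmt2 over Shmt1 was 2.55, 1.95 and 1.81 in the VZ, 2.42, 2.31 and 0.91 in the mMZ and 3.93, 4.76 and 4.44 in the lMZ. By mean FPKM, Shmt2 exceeded Shmt1 4.18 times in the VZ, 3.40 times in the mMZ and 20.1 times in the lMZ. All lMZ libraries lay above all others, and VZ and mMZ overlapped.

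Mthfd1, the cytosolic enzyme with 3 folate activities (chr12:76255298-76319803, plus strand), measured 8.89, 8.59 and 13.6 FPKM in the VZ libraries, 5.97, 6.14 and 8.26 FPKM in the mMZ libraries and 3.63, 3.13 and 2.92 FPKM in the lMZ libraries. Like Shmt2 it showed no overlap between any zones, an order that 2.06% of all tested genes had. For Mthfd1 the nearest libraries were VZ replicate 2 at 8.59 FPKM and the shallow mMZ replicate 3 at 8.26 FPKM. In mMZ replicate 3 a single fragment of Mthfd1 counted as 0.596 FPKM, more than the gap between them. VZ exceeded lMZ by 1.40 ± 0.26 (SE; 95% interval 0.81 to 1.99; limma adjusted p = 0.00796). The mMZ minus lMZ difference was 0.87 (0.28 to 1.46; limma adjusted p = 0.103) and VZ minus mMZ was 0.53 (-0.06 to 1.12; limma adjusted p = 0.447).

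The mitochondrial enzymes Mthfd2 and Mthfd1l passed in no comparison. Mthfd2, which oxidises the mitochondrial carbon unit (chr6:83305691-83325908, minus strand), measured 6.49, 6.29 and 3.74 FPKM in the VZ libraries, 8.98, 6.50 and 8.15 FPKM in the mMZ libraries and 5.55, 5.67 and 5.47 FPKM in the lMZ libraries. The mMZ was highest, with the nearest libraries at 6.49 FPKM in the VZ and 6.50 FPKM in the mMZ, and the low VZ value came from about 2.0 fragments in the shallow VZ replicate 3. VZ minus lMZ was -0.04 ± 0.26 (SE; 95% interval -0.63 to 0.55; limma adjusted p = 0.922), and it was 0.17 without VZ replicate 3. VZ minus mMZ was -0.47 (-1.06 to 0.12; limma adjusted p = 0.479) and mMZ minus lMZ was 0.43 (-0.16 to 1.02; limma adjusted p = 0.397). These intervals leave room for differences of about 1 on the log2 scale in either comparison with the mMZ.

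Mthfd1l, the mitochondrial formyltetrahydrofolate synthetase (chr10:3973118-4167081, plus strand), measured 2.37, 3.01 and 6.74 FPKM in the VZ libraries, 2.39, 2.40 and 3.10 FPKM in the mMZ libraries and 2.85, 2.22 and 2.07 FPKM in the lMZ libraries. All 3 zones overlapped, and the value that stood out, 6.74 FPKM, came from an implied 6.4 fragments in the shallow VZ replicate 3. VZ minus lMZ was 0.49 (95% interval -0.29 to 1.26; limma adjusted p = 0.342), VZ minus mMZ was 0.38 (-0.40 to 1.16; limma adjusted p = 0.655) and mMZ minus lMZ was 0.10 (-0.67 to 0.88; limma adjusted p = 0.90). Without VZ replicate 3, VZ minus lMZ was 0.13 and VZ minus mMZ was 0.02.

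Mitochondrial over cytosolic expression of the Mthfd genes was accordingly lowest in the VZ for Mthfd2. Log2 of Mthfd2 over Mthfd1 was -0.46, -0.45 and -1.87 in the VZ, 0.59, 0.08 and -0.02 in the mMZ and 0.61, 0.86 and 0.91 in the lMZ. The zones did not overlap, with Mthfd1 the higher gene in every VZ library and Mthfd2 the higher in every lMZ library. Log2 of Mthfd1l over Mthfd1 was -1.91, -1.51 and -1.01 in the VZ, -1.32, -1.35 and -1.42 in the mMZ and -0.35, -0.50 and -0.50 in the lMZ, where VZ and mMZ overlapped. Summed over genes, Shmt1 and Mthfd1 reached 19.2 ± 5.98 FPKM in the VZ, 11.9 ± 3.98 FPKM in the mMZ and 3.81 ± 0.513 FPKM in the lMZ. Shmt2, Mthfd2 and Mthfd1l together reached 46.3 ± 7.92 FPKM in the VZ, 27.9 ± 2.81 FPKM in the mMZ and 19.7 ± 0.608 FPKM in the lMZ (SD, n = 3 each).

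Tyms, thymidylate synthase (chr5:30058202-30073617, minus strand), measured 14.4, 17.0 and 70.7 FPKM in the VZ libraries, 18.1, 15.3 and 9.19 FPKM in the mMZ libraries and 5.92, 5.31 and 6.29 FPKM in the lMZ libraries. VZ and mMZ overlapped, both lay above the lMZ, and the 70.7 FPKM of the shallow VZ replicate 3 set the VZ mean of 34.0 ± 31.8 FPKM (SD, n = 3). VZ exceeded lMZ by 1.99 ± 0.52 (SE; 95% interval 0.83 to 3.15; limma adjusted p = 0.027), and by 1.29 without VZ replicate 3 (limma adjusted p = 0.0162). The call was lost when any single lMZ library was left out (adjusted p up to 0.0892), with no filter and with only those zones in the fit (0.0576 each). The mMZ minus lMZ difference was 1.10 (-0.05 to 2.26; limma adjusted p = 0.261). VZ minus mMZ was 0.88 (-0.28 to 2.04; limma adjusted p = 0.488), and it was -0.08 without both shallow libraries.

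**Figure D3:**
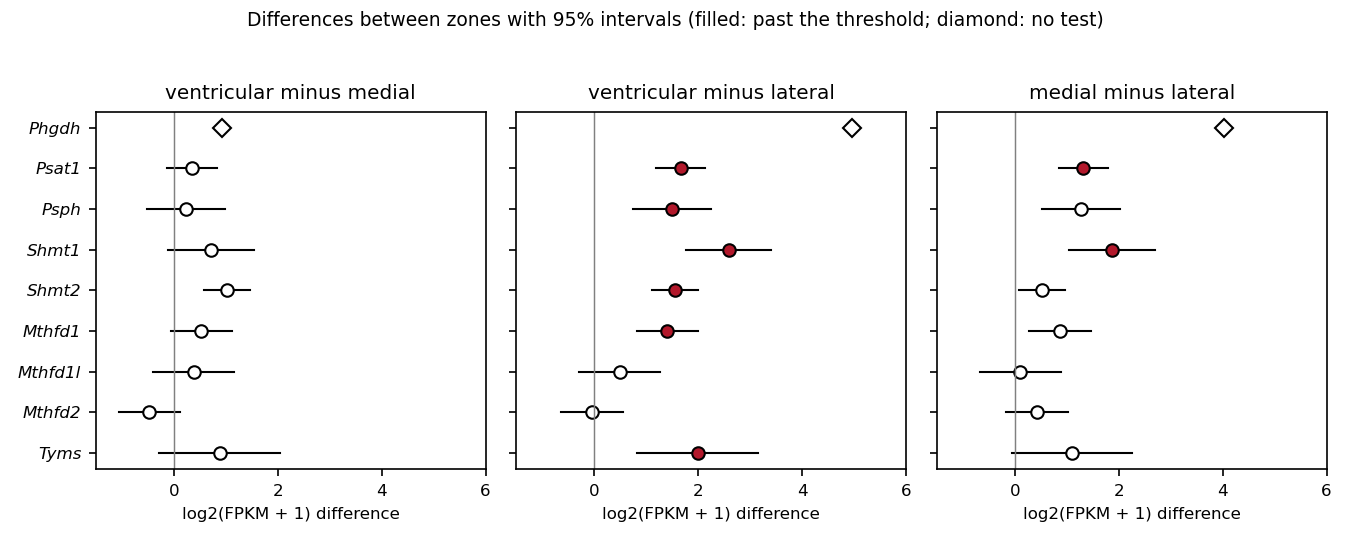
Log2 differences of log2(FPKM + 1) with 95% limma intervals for the 9 enzymes in VZ minus mMZ, VZ minus lMZ and mMZ minus lMZ. Filled points passed an adjusted p of 0.05 and diamonds mark Phgdh, which is shown without a test; 6 of the other 8 enzymes passed in VZ minus lMZ, 2 in mMZ minus lMZ and none in VZ minus mMZ.

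Counted by library, 8 of the 9 genes (all but Mthfd1l, and Phgdh by choice) were higher in every mMZ than in every lMZ library, against 25.7% of all tested genes. For VZ over lMZ the count was 7 of 9, without Mthfd1l and Mthfd2, against 25.2%, and Phgdh is among the 7 by choice. For VZ over mMZ it was 2 of 9, Shmt2 and Mthfd1, against 5.36%, while Mthfd2 alone was lower in every VZ than in every mMZ library, against 9.3%. Mthfd1 and Mthfd2 are placed there by the near ties given above. The median difference of the 8 genes other than Phgdh was 1.53 in VZ minus lMZ, beside 0.05 over all tested genes, and 0.99 in mMZ minus lMZ, beside 0.10 over all tested genes. Without both shallow libraries, the fit held 2 mMZ and 2 VZ libraries. With Phgdh set aside, Psat1, Psph, Shmt1, Shmt2, Mthfd1 and Tyms then passed in mMZ minus lMZ. The tested genes that rose numbered 1301, against 501 with all libraries.

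Promoter sequences show what these genes share and do not share at their starts. RefSeq promoters (GRCm38.p6) were found for 9 of 9 genes, Psat1 with 2, and the 250 bases before each start were searched on both strands. The letters CCAAT occurred in 6 of the 10 promoters, those of Phgdh, Psat1, Psph, Shmt1, Mthfd1 and Mthfd2, and in 33.8% of 32851 promoters of all genes. The GC box GGGCGG occurred in 6 of the 10, those of Psat1, Psph, Shmt1, Mthfd1, Mthfd1l and Tyms, and in 32.7% of all. The E-box CACGTG was in the Tyms promoter (6.02% of all), and the palindromic NRF1 element, whose letters are the capitals in the Shmt2 line, was in that of Shmt2 (0.782% of all). Neither the element of C/EBP and ATF factors, TGATGNAA (3.45% of all), nor the E2F elements TTTGGCGC and TTTCCCGC (1.3% of all, either one), nor TGACGTCA (1.55% of all) was in these windows. The motifs were chosen after the sequences had been seen, a match describes letters only, and a window without a match says nothing of the factor.

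Stretches of up to 120 bases before the RefSeq start are given for the first serine synthesis genes, the SHMT genes and the mitochondrial genes that showed no call. They are free of annotated exons of the same gene, and exons of other genes were not checked. The Psat1, Shmt1 and Mthfd2 stretches lie inside the gene spans given above. Each reads 5′ to 3′ on the gene's strand, with the motifs above in capitals on either strand. The Phgdh stretch (chr3:98339991-98340110, minus), from 141 to 22 bases before the start, holds neither of its CCAAT matches in full. That of Psat1 (chr19:15925060-15925179, minus) is from its promoter with CCAAT letters. The Shmt1 stretch (chr11:60811266-60811385, minus) has GC boxes, a pair of them overlapping, and the Shmt2 stretch (chr10:127522445-127522564, minus) has the NRF1 letters alone. Those of Mthfd2 (chr6:83317607-83317726, minus) and Mthfd1l (chr10:3972955-3973074, plus) have CCAAT letters and a GC box in turn. Nothing about which genes passed is read from these letters.
Phgdh: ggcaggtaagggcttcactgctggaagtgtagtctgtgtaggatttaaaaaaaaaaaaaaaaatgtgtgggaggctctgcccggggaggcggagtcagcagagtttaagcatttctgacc
Psat1: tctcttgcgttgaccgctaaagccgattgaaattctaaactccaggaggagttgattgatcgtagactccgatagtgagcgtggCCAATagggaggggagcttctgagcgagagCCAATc
Shmt1: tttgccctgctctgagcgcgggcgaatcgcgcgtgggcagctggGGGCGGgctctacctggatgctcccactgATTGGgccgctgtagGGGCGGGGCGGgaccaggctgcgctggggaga
Shmt2: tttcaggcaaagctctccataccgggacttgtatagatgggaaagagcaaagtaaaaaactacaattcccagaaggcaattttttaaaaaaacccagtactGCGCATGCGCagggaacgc
Mthfd2: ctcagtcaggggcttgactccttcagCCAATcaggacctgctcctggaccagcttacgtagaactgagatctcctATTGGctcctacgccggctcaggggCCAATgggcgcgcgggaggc
Mthfd1l: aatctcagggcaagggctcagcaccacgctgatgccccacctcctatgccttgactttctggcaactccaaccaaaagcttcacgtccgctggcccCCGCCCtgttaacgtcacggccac

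Genes of neighbouring pathways were counted in fixed lists beside the enzymes. The VZ against lMZ counts below stand against 10.7% of all tested genes that rose and 8.93% that fell, and several are near those shares. Of the 11 tested genes that use serine or glycine, 3 rose in VZ against lMZ, and the median difference was 0.01 beside 0.05 over all tested genes. Gldc, the decarboxylase of the glycine cleavage system, measured 16.2, 9.85 and 23.0 FPKM in the VZ libraries, 11.2, 13.9 and 14.1 FPKM in the mMZ libraries and 0.847, 0.483 and 1.11 FPKM in the lMZ libraries. Every lMZ library lay far below every VZ and mMZ library, and VZ and mMZ overlapped. It rose by 3.2 ± 0.32 in VZ against lMZ (SE; limma adjusted p = 0.000662) and by 2.96 ± 0.32 in mMZ against lMZ (limma adjusted p = 0.00225). Cth, of cysteine synthesis, differed by 2.40 and Gcsh, the carrier protein of glycine cleavage, by 1.04 in VZ minus lMZ (limma adjusted p = 0.0188 and 0.0287). Outside the VZ, Cth reached 1 FPKM only in mMZ replicate 1 (1.31 FPKM). It thus entered the test through the zone where it was high, and nothing is read from its p-value. The other glycine cleavage genes Dld and Amt differed by 0.01 and -0.20 (limma adjusted p = 0.979 and 0.36).

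Most transporters of serine and glycine did not pass. Of 10 tested, Slc1a5 rose (1.27; limma adjusted p = 0.0407) and Sfxn1, the mitochondrial serine carrier, fell in VZ against lMZ (-0.74; limma adjusted p = 0.0249), and the median was -0.17. Sfxn1 averaged 20.8 ± 3.76 FPKM in the VZ, 25.7 ± 1.001 FPKM in the mMZ and 35.5 ± 5.92 FPKM in the lMZ (SD, n = 3 each). The abundant amino acid transporters Slc38a2 and Slc38a1 differed by 0.20 and -0.03 in VZ minus lMZ (limma adjusted p = 0.342 and 0.913).

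Among 13 other folate genes, 4 rose in VZ against lMZ with a median of -0.04 over the list. Among them, Aldh1l1, which oxidises formyltetrahydrofolate, differed by 2.66 and the folate receptor Folr1 by 1.68 (limma adjusted p = 0.023 and 0.016). Folr1 reached 1 FPKM only in the VZ libraries (2.89, 2.04 and 5.44 FPKM). Outside the VZ, Aldh1l1 reached it only in mMZ replicate 1 and mMZ replicate 2. Both thus entered the test through the zone where they were high, so nothing is read from their p-values or their place among the 4. Aldh1l1 averaged 10.1 ± 6.23 FPKM in the VZ, 1.87 ± 2.43 FPKM in the mMZ and 0.508 ± 0.0649 FPKM in the lMZ (SD, n = 3 each). Mthfd2l, a mitochondrial enzyme of the same reaction as Mthfd2, averaged 17.9 ± 7.04 FPKM in the VZ, 16.5 ± 0.283 FPKM in the mMZ and 13.6 ± 1.87 FPKM in the lMZ, a VZ minus lMZ difference of 0.32 (95% interval -0.25 to 0.89; limma adjusted p = 0.398). The folate carrier Slc46a1 differed by -0.28 (limma adjusted p = 0.35).

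Of the pathways that receive the carbon, the list for deoxynucleotide supply had 7 of its 9 tested genes higher in VZ than lMZ, with a median difference of 1.15, and in mMZ against lMZ 4 of 9 rose (Tk1, Rrm1, Rrm2 and Dck), with a median of 0.998. Rrm2, a subunit of ribonucleotide reductase, averaged 36.6 ± 12.54 FPKM in the VZ, 29.7 ± 12.4 FPKM in the mMZ and 2.70 ± 0.705 FPKM in the lMZ (SD, n = 3 each), a VZ minus lMZ difference of 3.31 ± 0.35 (SE; limma adjusted p = 0.000718). Thymidine kinase Tk1 differed by 2.71, the reductase subunit Rrm1 by 1.77 and the deaminase Dctd by 1.49 (limma adjusted p = 0.00663, 0.00591 and 0.0117), while Samhd1 (1.15) and Rrm2b (0.15) were not past the threshold (limma adjusted p = 0.152 and 0.855). Purine synthesis had 4 of 13 higher in VZ than lMZ, with a median of 0.42. Of these, Paics differed by 1.54, Prps2 by 1.30, Adsl by 0.82 and Gart, whose product takes formyl carbon, by 0.68 (limma adjusted p = 0.0102, 0.0205, 0.046 and 0.0283), and Impdh2 (0.33) and Impdh1 (-0.49) were not past it (limma adjusted p = 0.199 and 0.185).

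The methionine cycle had 3 of 10 higher in VZ than lMZ, with a median of 0.37. Mat2b differed by 1.22, Gamt by 1.17 and Ahcy by 0.86 (limma adjusted p = 0.0186, 0.0434 and 0.0444), and the abundant Mat2a (0.01) and Ahcyl1 (0.08) did not pass (limma adjusted p = 0.968 and 0.691). Enzymes of glycolysis around 3-phosphoglycerate had 3 of 9 higher, Pgk1 (1.02), Eno1 (0.91) and Pkm (0.54), and 1 lower, the neuronal enolase Eno2 (-2.64), with a median of 0.42 (limma adjusted p = 0.0327, 0.0348, 0.0221 and 0.0199). Gapdh (0.57) and Pgam1 (0.37) were not past the threshold (limma adjusted p = 0.0713 and 0.167).

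Transcription factors tied to these genes in other cells mostly did not pass. Atf4, the activator of serine synthesis genes under amino acid stress, averaged 83.0 ± 10.1 FPKM in the VZ, 90.2 ± 4.83 FPKM in the mMZ and 73.2 ± 7.51 FPKM in the lMZ (SD, n = 3 each; VZ minus lMZ 0.18, limma adjusted p = 0.413). Of 19 tested genes of the Atf4 and stress list, 2 rose in VZ against lMZ, Atf5 by 1.72 and Eif4ebp1 by 1.25 (limma adjusted p = 0.0103 and 0.0182), and the median was 0.18. The serine tRNA synthetase gene Sars differed by -0.07 (limma adjusted p = 0.81). Of 9 genes of the Myc family and its partners, Mxd3 rose by 1.85 and Mxi1 by 0.80 (limma adjusted p = 0.0099 and 0.0265), both Myc antagonists, with a median of -0.06, and Mxd4 (-0.06) and Mga (1.01) did not pass (limma adjusted p = 0.81 and 0.111).

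Many of these single calls were lost when 1 library was left out, and so were many over all tested genes. Over all tested genes, calls in VZ against lMZ fell from 2750 to 959, 1021 and 1250 without lMZ replicate 1, 2 and 3 in turn. How many of all called genes stayed past the threshold without any 1 library was not counted. Of the 31 genes of these 9 lists called in VZ against lMZ, 7 (Gldc, Paics, Tk1, Rrm1, Rrm2, Atf5 and Mxd3) stayed past the threshold without any 1 library, and the other 24 did not. Leaving out any 1 of the 3 lMZ libraries ended the call of Cth, Slc1a5, Aldh1l1, Prps2, Adsl, Gart, Gamt, Ahcy, Pgk1, Eno1, Pkm and Mxi1 (limma adjusted p up to 0.157, for Gamt). Gcsh, Sfxn1, Mat2b, Eif4ebp1 and Eno2 did not pass without lMZ replicate 1 or 2 (up to 0.109, for Gcsh), Folr1 without lMZ replicate 1 or 3 (up to 0.0731) and Dctd without lMZ replicate 1 (0.0573). Without VZ replicate 1, Gcsh, Slc1a5, Sfxn1, Aldh1l1, Gamt, Ahcy, Adsl, Gart, Eif4ebp1, Mxi1, Pgk1 and Eno2 did not pass either, nor did Slc1a5, Aldh1l1, Adsl and Gamt without VZ replicate 3 or Slc1a5 and Ahcy without VZ replicate 2. Slc1a5, Adsl, Gamt, Ahcy, Gart, Pgk1, Eno1 and Mxi1 were also lost without at least 1 mMZ library, which enters through the shared estimate of the spread. Other processing ended some VZ against lMZ calls too. Ahcy passed in 7 of 21 alternatives, and not under quantile normalization or trimmed mean scaling (limma adjusted p = 0.105 and 0.111). Gamt was lost under trimmed mean scaling and the replicate block (0.0553 and 0.0591). Aldh1l1 and Folr1 were lost with a pseudocount of 0.1 (0.0694 and 0.0651). Of the 7 list genes called in mMZ against lMZ, Gldc and Rrm2 stayed past the threshold without any 1 library. In VZ against mMZ no gene of these lists passed the adjusted threshold.

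**Figure D4:**
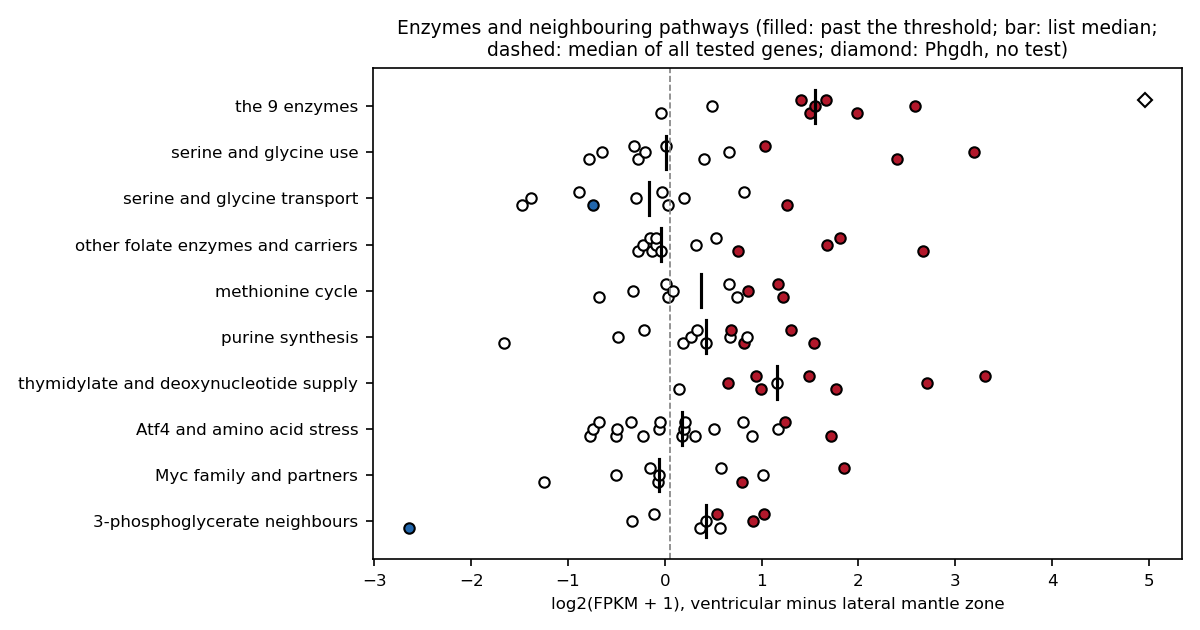
VZ minus lMZ difference of log2(FPKM + 1) for the 9 enzymes and for the tested genes of 9 neighbouring pathway lists (1 point per gene; bars are list medians; the dashed line is the median of all tested genes, 0.05). The list medians run from -0.17 (transport) to 1.15 (deoxynucleotide supply).

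The genes whose profile over the 9 libraries was most like that of Phgdh, by the root mean square difference of centred log2(FPKM + 1) among 9746 candidates with at least 5 FPKM in their highest zone, were Vim at 0.35, Nhlh1 at 0.38, Mfng and Lfng at 0.39 each and Ednrb at 0.41. Their ranks without the shallow libraries were taken in the wider pool of all 14003 other tested genes, with no limit on level. There Vim ranked 2, Mfng 5, Nhlh1 7, Lfng 9 and Ednrb 10, so that Nhlh1 and Mfng changed places. Vim encodes an intermediate filament protein of radial glia, Nhlh1 a helix-loop-helix factor of newborn neurons, Mfng and Lfng modifiers of Notch and Ednrb an endothelin receptor. Of the other enzymes, ranked among all 14003 other tested genes with no limit on level, Shmt1 came 227th, Tyms 516th and Psat1 553rd, and Psph, Mthfd1 and Shmt2 came 617th to 863rd. Mthfd1l at 4177 and Mthfd2 at 6619 were far from it. This order describes the 9 libraries, whose zones differ together in progenitor and neuron content.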

How the data were processed

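RNA of 9 libraries was measured by mRNA sequencing of 100 bp pairs on an Illumina instrument, per the labels' protocols. The authors deposited FPKM values for each gene and library. Bowtie2 2.1.0 and mm10 come from the submitters' processing notes, while the FPKM program is not given in the sources. Of 38370 rows, 42 exact duplicates were dropped, and of symbols listed more than once the row of highest mean was kept, which dropped another 133. Symbols matched the reference names for 34293 of the 38195 genes left. FPKM are not counts, so limma 3.58.1 in R 4.3.3 fitted log2(FPKM + 1), with a pseudocount of 1, to all 9 libraries with 1 mean per zone, an intensity trend and two-sided p-values adjusted by Benjamini-Hochberg over the 14004 genes that reached 1 FPKM in 3 or more libraries. The script was tested on simulated data with 1 spread per gene for all libraries. Those data held no shallow libraries, so that test says nothing of their effect.

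The enzymes, the 16 gene lists (188 symbols, 185 in the table; Aprt, Mycl and Epb42 were not analysed here) and the tests were chosen with earlier results of these data known. Named list genes were up to 4 past the threshold by size of the VZ minus lMZ difference and up to 2 others by mean level, except that a few genes picked by this rule are left out of the text. Depth was estimated from the steps between low FPKM values, gives relative depth only, and covers counting error only. Fragment numbers of single genes also assume the length of the longest annotated coding transcript, and scale with it. The alternatives were other pseudocounts, filters and scalings, no intensity trend, array weights, a fit to only the zones compared, a replicate block, and fits without single libraries or without both shallow ones.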

Additional observations from a re-analysis of the deposited data

How the results depend on the processing

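Each library's depth and the 3 libraries per zone limit what can be seen: at the depth of VZ replicate 3, 1 fragment of Mthfd2 was worth 1.85 FPKM. Of 567 alternative values for single enzymes and comparisons, 524 kept their direction and, where tested, their side of the threshold. The untested Phgdh differences from the VZ counted as kept if they moved by no more than the SD between libraries. For Phgdh in mMZ minus lMZ the side of the threshold was used. All 21 of its values kept it, which is not read as a test because its lMZ values took part in the choice. Another 21 values passed where they had not, 14 no longer passed, 7 changed sign and 1 untested value moved beyond its spread. Other filters, no intensity trend, a fit to only the zones compared and the block leave the difference itself unchanged. The 524 thus say little about direction.

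In VZ minus lMZ the number of enzymes that rose was 6 of 8 (2750 of all tested genes called), and 4 to 6 when 1 library was left out (959 to 3958). In mMZ minus lMZ it was 3 of 9 with Phgdh counted (577 of all tested genes called), 7 with array weights (3700) and 6 with only those zones in the fit (2027). It was 7 without both shallow libraries (1666) and 2 to 6 when 1 library was left out (207 to 1760). Phgdh is in each of these counts for mMZ minus lMZ as a description only, since its low lMZ values took part in the choice. In VZ minus mMZ the number that rose was 0 of 8. It was 4 with array weights (2761 of all tested genes called) and 0 to 1 when 1 library was left out (0 to 571). Why these counts moved was not tested.

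The changes of sign were all in values that did not pass. In VZ minus mMZ, Psph ran from -0.09 (without VZ replicate 3) to 0.487 when 1 library was left out, and Tyms was -0.078 with array weights and -0.083 without both shallow libraries. In VZ minus lMZ, Mthfd2 was 0.17 with array weights, 0.17 without both shallow libraries and, when 1 library was left out, -0.159 (without VZ replicate 1) to 0.171 (without VZ replicate 3). In mMZ minus lMZ, Mthfd1l was -0.072 under quantile normalization.

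Over all tested genes, 2750 were called in VZ against lMZ, 959 to 3958 without 1 library and 1684 to 6800 under the other settings. In mMZ against lMZ, 86.8% of the calls were higher in the mMZ (66.6% under quantile normalization), and the calls numbered 207 to 1760 without 1 library and 415 to 3700 otherwise. In VZ against mMZ 0 were called, up to 571 without 1 library and up to 2761 otherwise. Trimmed mean scaling shifted the median of all genes by -0.11 in VZ minus lMZ and -0.12 in mMZ minus lMZ, and quantile normalization shifted the second by -0.11. Apart from Mthfd1l, no enzyme changed direction under either scaling.

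The labels number the libraries 1 to 3 in each zone. Deviations from the zone means correlated at -0.10 to 0.25 between same-numbered libraries of different zones, with 4 of 9 pairs over 0.1. Between differently numbered libraries they correlated at -0.25 to 0.23. What the numbers stand for is not stated in the labels, so they were not taken as pairing. These correlations do not settle whether they mark pairs. A fit with the replicate number as a block called 6 of 8 enzymes in VZ minus lMZ (2901 of all 14004 tested genes called). It called 4 of 9 in mMZ minus lMZ (703), with Phgdh counted as a description only, and 0 of 8 in VZ minus mMZ (0).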
